A study of Mus musculus with 5 samples.

Results

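The microRNA (miRNA) content of 2TS22c embryonic stem (ES) cells was set against that of ZHBTc4 ES cells, 1 array each. All 1265 spots named for mouse miRNAs were compared, out of 3200 spots on each array. The arrays are 2 of 5 in the study. The other 3 were hybridised with RNA of the wild-type ES line V6.5, of PKM1 KI ES cells, named for a knock-in of the M1 form of pyruvate kinase, and of a V6.5 embryoid body, a floating aggregate of differentiating cells kept 1 week without LIF. All 4 ES cultures were grown with LIF, the cytokine that keeps mouse ES cells undifferentiated.

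ZHBTc4 is known as an ES line in which both alleles of the endogenous gene for Oct3/4 are disrupted and a transgene that tetracycline shuts off supplies the factor. In 2TS22c the endogenous Sox2 gene is disrupted instead, and a transgene of the same kind supplies Sox2. Each line is thus a single clone that lives on a transgene, and the labels name no parental line for either. The labels record no drug for either culture, so both were taken as growing ES cells with the factor on. Neither factor is read by a miRNA array, and the switch itself could not be checked. The 2TS22c array lay on the chip that carried V6.5, PKM1 KI and the embryoid body, at a detector gain of 46, and the ZHBTc4 array lay alone on the second chip, at a gain of 47. With 1 array per line, the difference between the lines and that between the chips or cultures cannot be told apart. No value below has a replicate error and no test was possible.

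Oct3/4 and Sox2 bind together to the enhancers of many pluripotency genes, among them those of miRNA clusters. A miRNA guides the silencing machinery to messenger RNAs that pair with its seed, bases 2 to 8 from its 5′ end, so miRNAs with the same seed share many targets. In mouse ES cells the miR-290-295 cluster is the most prominent. Much of it shares the bases AAGUGC with the miR-302 and miR-17 families, which promote rapid cell division.

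The mature sequences of the miRNAs that the results turn on are given first, from RefSeq on GRCm38.p6, 5′ to 3′, with the seed in capitals. The first set shows the shared AAGUGC bases in 3 clusters, which the 2 arrays could be compared on as a family.
miR-291a-3p: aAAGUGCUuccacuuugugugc
miR-294-3p: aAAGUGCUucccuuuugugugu
miR-295-3p: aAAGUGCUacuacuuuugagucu
miR-302d-3p: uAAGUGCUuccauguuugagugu
miR-17-5p: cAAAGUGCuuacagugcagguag
miR-20a-5p: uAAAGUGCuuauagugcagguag

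miR-291a-3p lies at chr7:3218968-3218989, miR-294-3p at chr7:3220691-3220712 and miR-295-3p at chr7:3220815-3220837, all on the plus strand. miR-302d-3p lies at chr3:127545665-127545687, miR-17-5p at chr14:115043684-115043706 and miR-20a-5p at chr14:115044183-115044205, also on the plus strand. In the miR-17 family the shared bases start 1 position later than in the others. The second set holds the 3 hairpins of the miR-182, miR-183 and miR-96 cluster, which had the highest median among the 20 lists with 3 or more detected members.
miR-182-5p: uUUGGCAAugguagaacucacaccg
miR-96-5p: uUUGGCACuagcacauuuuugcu
miR-183-5p: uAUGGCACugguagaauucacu
miR-183-3p: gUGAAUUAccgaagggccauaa

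These hairpins lie within 3820 bases on the minus strand of chromosome 6, from 30165918 to 30169737. The third set holds pairs that differ by 1 base, so that their probes may share signal.
miR-103-3p: aGCAGCAUuguacagggcuauga
miR-107-3p: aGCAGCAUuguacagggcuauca
miR-19a-3p: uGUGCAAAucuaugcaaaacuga
miR-19b-3p: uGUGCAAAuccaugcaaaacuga

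Counted from the 5′ end, miR-107-3p differs from miR-103-3p by G22C and miR-19b-3p from miR-19a-3p by U11C. The last set holds 5 miRNAs among the largest differences in each direction that were detected on both arrays.
miR-5125: uCUGCCUGggauuuccuugu
miR-744-3p: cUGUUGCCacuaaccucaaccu
miR-3102-5p.2-5p: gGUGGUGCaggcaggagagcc
miR-1249-3p: aCGCCCUUcccccccuucuuca
miR-6410: uGGCUCAGggacuacucugugc

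These lie at chr17:23823339-23823358 (plus strand), chr11:65734742-65734763 (minus), chr7:100882367-100882387 (minus), chr15:84951545-84951566 (minus) and chr10:78434803-78434824 (plus), in the order listed. Their 5 seeds are all different.

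The intensity of a spot is the median brightness of its pixels, on a linear scale, with no background taken off. Detection required an intensity above the blank spots' mean by more than 2 of their SDs (1664 spots), a limit of 59.9 on 2TS22c and 61.6 on ZHBTc4. By that rule 507 miRNAs (40.1%) were detected on 2TS22c and 520 (41.1%) on ZHBTc4, against 750 to 763 on the other 3 arrays. Between the pair, 414 miRNAs were detected on both arrays, 93 on 2TS22c only and 106 on ZHBTc4 only. The limit was passed by 3.25% and 3.67% of blank spots. Markers of ES cells were plain on both arrays, with 5 of 5 miR-290-295 markers detected and summed intensities of 12923 and 14495. Of 7 markers of fibroblasts or feeder cells, 3 were detected on each array (sums 488 and 512). miR-21a-5p (117 and 119) and miR-214-3p (97 and 102) were detected on both. miR-143-3p was detected on ZHBTc4 only and miR-145a-5p on 2TS22c only. miR-199a-3p/miR-199b-3p (43 and 60), miR-29a-3p and miR-10b-5p were below the limit on both. The neural marker miR-124-3p was detected at 99 and 107, while miR-9-5p, miR-128-3p and miR-219-5p were below the limit. The liver marker miR-122-5p was below the limit on both arrays. Of 3 muscle markers, miR-133a-3p was detected on ZHBTc4 only (57 and 63), and miR-1a-3p and miR-206-3p on neither array (sums 162 and 173). Of 5 markers of blood and endothelium, miR-142-3p (60 and 51) and miR-126-3p (66 and 61) were detected on 2TS22c only, and miR-451a, miR-144-3p and miR-223-3p on neither array (sums 290 and 282).

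The 2 lines had nearly the same miRNA profile, and 1 miRNA, miR-3096b-5p, stood far apart. Of 613 miRNAs detected on at least 1 of the 2 arrays, 1 was at least 2-fold apart (0.163%), and it was higher on 2TS22c. At least 1.5-fold apart were 13 (2.12%), of which 10 were higher on 2TS22c (1.63%) and 3 lower (0.489%). Among the 414 detected on both arrays, 4 were that far apart (0.966%). Differences are given as log2 of the normalised signal on 2TS22c minus that on ZHBTc4. Their median was 0 and their SD 0.28, or 0.25 without miR-3096b-5p, with 284 miRNAs higher, 305 lower and 24 equal. The median and the even split are largely set by quantile normalisation, which gives the arrays the same distribution. The summed intensities were 260584 on 2TS22c and 295342 on ZHBTc4. Across the 414 miRNAs, which were read from the same RNA samples and so do not replicate each other, the Pearson correlation was 0.988 and Spearman's rho 0.914. The count at 1.5-fold depended on the processing: it was 4 when the 2 arrays were normalised alone and 143 with the authors' processed values. The authors' table held values for 691 of 1265 miRNA spots on 2TS22c and 720 on ZHBTc4. Each gap was filled with the lowest value of its array.

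**Figure D1:**
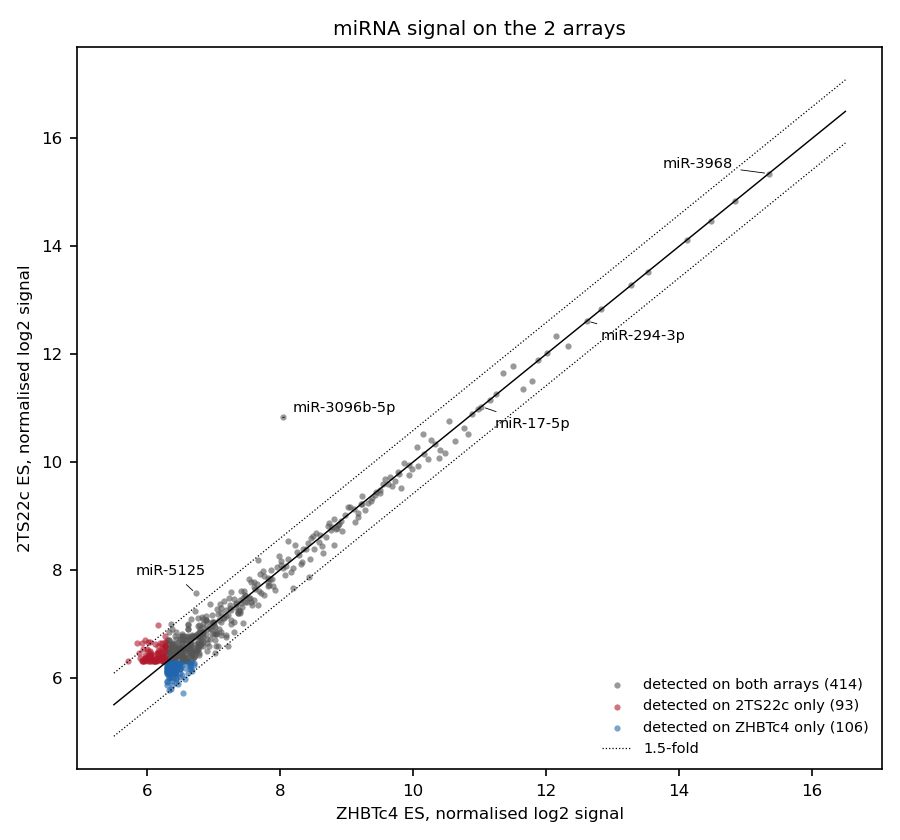
Normalised log2 signal of the 613 miRNAs detected on at least 1 of the 2 arrays, ZHBTc4 on the x axis and 2TS22c on the y axis, 1 point per miRNA. The solid line marks equal signal and the dotted lines 1.5-fold. The points lie along the line from dim to bright, apart from miR-3096b-5p at 8.04 and 10.83.

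For scale, the same share at 1.5-fold was 2.29% between V6.5 and PKM1 KI, 18.4% between V6.5 and 2TS22c and 15.7% between V6.5 and ZHBTc4. Blank spots carry no miRNA, and put through the same processing 8 of 1664 (0.481%) were at least 1.5-fold apart. All 8 were among the 112 blank spots above the limit on at least 1 array (7.14%), where passing on 1 array alone favours a difference. The 112 are not a matched set for the 613 miRNAs, most of which were detected on both arrays. Of the 93 miRNAs detected on 2TS22c only, 7 were at least 1.5-fold apart, and of the 106 on ZHBTc4 only, 2. These shares do not place such calls above those of the blank spots.

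Most of the 13 were dim. A total of 11 had a mean intensity under 100, where 441 of the 613 miRNAs lay. Of the 104 miRNAs between 100 and 300, 1 was 1.5-fold apart, and of the 68 above 300, 1. The SD of the differences was 0.27, 0.21 and 0.37 in these classes, and 0.15 in the brightest class without miR-3096b-5p.

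Among the 68 bright miRNAs, 58 lay within 1.2-fold and 45 within 1.1-fold. Quantile normalisation gives spots of equal rank on the 2 arrays the same value, so part of this closeness comes from the processing. For miR-17-5p the difference was 0, though it read 1179 on 2TS22c and 1463 on ZHBTc4. Higher by at least 1.2-fold on 2TS22c were 4: miR-3096b-5p, miR-292-3p and miR-293-3p of the ES cell cluster, and miR-6243, whose intensity was 905 on 2TS22c and 836 on ZHBTc4, a log2 difference of 0.37. Lower by as much were 6. Of the higher and the lower alike, all but miR-3096b-5p fell short of 1.2-fold in at least 1 of the 7 other processings. For miR-6243 the log2 difference was 0.11 with the authors' values and 0.20 with spike scaling. The call was also lost for miR-292-3p (2104 and 2157) and miR-293-3p (1917 and 2070) under other scalings. With the authors' values their log2 differences turned to -0.02 and -0.05, and with spike scaling they were 0.05 and -0.02. The lowest of the bright class on 2TS22c were miR-762 (905 and 1197), miR-149-3p (751 and 931) and miR-291a-3p (1797 and 2257), each with a log2 difference of -0.31. For miR-291a-3p it ranged from -0.31 to 0 under the 7 other processings, with -0.07 for local background and 0 for the mean of pixels. The 10 brightest miRNAs were the same 10 on both arrays and took 52.8% and 54.7% of the summed intensity. They were led by miR-3968 at 44447 and 48512, and included miR-294-3p and miR-295-3p of the ES cell cluster.

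miR-3096b-5p had an intensity of 1013 on 2TS22c and 177 on ZHBTc4. On V6.5, PKM1 KI and the embryoid body it was 230, 134 and 235. The 2TS22c array was thus the high one, and ZHBTc4 lay in the range of the other arrays in intensity. On the log2 scale the levels were 10.83 on 2TS22c and 8.04 on ZHBTc4, against 6.98 to 7.99 on the rest, so that 2TS22c was 6.90-fold higher than ZHBTc4. The log2 difference of 2.79 ranged from 2.52 to 3.02 over 7 other processings.

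The other spots of the same hairpin family did not share the difference. The 3p arm of the same hairpin, miR-3096b-3p, read 830 on 2TS22c and 893 on ZHBTc4, a log2 difference of 0. miR-3096a-3p read 470 and 500, a log2 difference of 0.05, and miR-3096a-5p was below the limit on both arrays, at 43 and 49. The pixels of the miR-3096b-5p spot varied by 19.4% (coefficient of variation) on 2TS22c. The median detected miRNA there varied by 36.4%. Spots of like intensity on that array, miR-5105 (1003) and miR-1983 (1021), varied by 19.1% and 18.4%. The local background of the miR-3096b-5p spot was 144 on 2TS22c against 96 on ZHBTc4. The 8 neighbouring spots include miR-3968, the brightest miRNA on the array at 44447, a spot of Spike Control 1 at 10187 and miR-5105 at 1003. On ZHBTc4 the same 3 neighbours read 48512, 9872 and 1062, so that no neighbour was higher on 2TS22c by the factor seen for miR-3096b-5p. The part of the neighbours in the result was not tested. There was 1 spot per miRNA, so the value rests on 1 spot on each array.

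**Figure D2:**
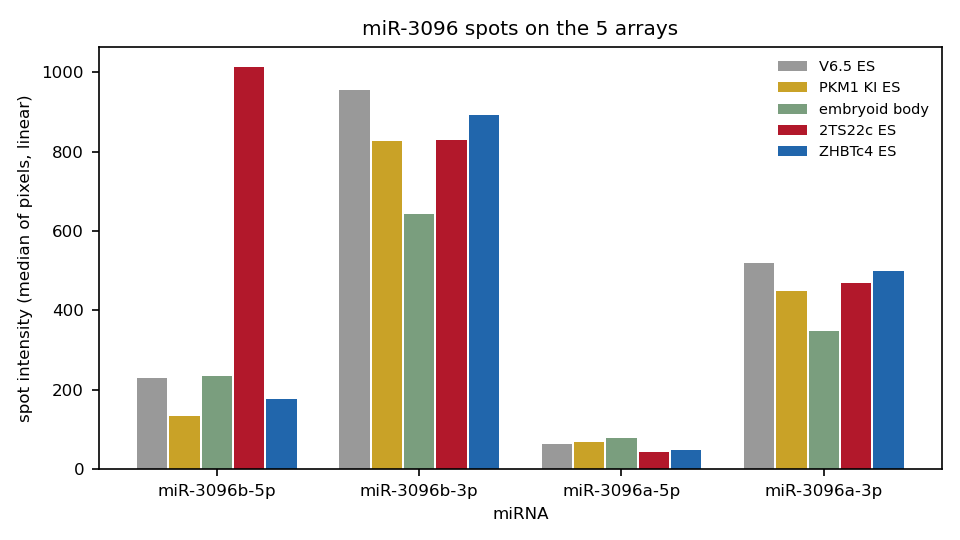
Spot intensity (median of pixels, linear scale from 0) of the 4 miR-3096 spots on the 5 arrays, 1 bar per array. miR-3096b-5p stands at 1013 on 2TS22c against 134 to 235 on the other arrays, while the 3p arms differ little between 2TS22c and ZHBTc4.

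Of the other miRNAs higher on 2TS22c, miR-5125 read 125 on 2TS22c and 80 on ZHBTc4, and 73, 73 and 50 on V6.5, PKM1 KI and the embryoid body. It was 1.78-fold higher than on ZHBTc4, and the 2TS22c array was again the highest of the 5. Its log2 difference of 0.83 lay between 0.66 and 1.62 under the other processings, so that miR-5125 and miR-3096b-5p were the only 2 of the 13 that passed 1.5-fold under all 7. miR-744-3p read 84 and 64, and 59, 72 and 46 on the other arrays, a 1.56-fold difference. It fell short of 1.5-fold with median scaling, the mean of pixels, spike scaling and the 2 arrays normalised alone, with log2 differences of 0.49, 0.57, 0.44 and 0.43.

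The remaining 7 of the 10 higher miRNAs were detected on 2TS22c only, and their differences are therefore bounds. Such a bound covers the detection limit alone and holds on the normalised, background-corrected scale of the main processing, where it can exceed the ratio of the intensities. Other processings can give less. miR-6377 read 83 and 57 and was at least 1.60-fold higher on that scale, the one bound past 1.5-fold, while its log2 difference was 0.24 with local background and 0.54 with the 2 arrays normalised alone. miR-96-3p, from the miR-182 cluster, read 73 and 49 and was at least 1.32-fold higher. miR-222-3p, which represses the cell cycle inhibitor p27, read 71 and 47 and was at least 1.27-fold higher, while its cluster partner miR-221-3p read 132 and 144, a log2 difference of 0.03. let-7f-2-3p, the minor strand of a let-7 hairpin, read 71 and 44 and was at least 1.27-fold higher. miR-675-3p, from the imprinted H19 transcript, read 72 and 51, and miR-654-3p read 72 and 52, each at least 1.29-fold higher. miR-881-3p, chosen after its values were seen, read 60 and 37 and lay at the detection limit of 2TS22c.

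The 3 miRNAs at least 1.5-fold lower on 2TS22c were miR-28a-3p, miR-1935 and miR-6345. miR-1935 was the one detected on both arrays, at 69 on 2TS22c and 109 on ZHBTc4, and at 121, 117 and 62 on V6.5, PKM1 KI and the embryoid body. It was 1.53-fold lower, with 2TS22c inside the range of the other arrays on the log2 scale and ZHBTc4 above it. miR-28a-3p (38 and 71) and miR-6345 (47 and 72), both chosen after their values were seen, were detected on ZHBTc4 and not on 2TS22c. They were at least 1.17-fold and at least 1.19-fold lower on 2TS22c. With 1 exception, the 13 miRNAs kept their direction under the 7 other processings. For miR-881-3p the authors' table had no value on either array, and its log2 difference of 0.06 there compares filled minimum values. For the 13, the intensities on the 2 arrays were apart by 3.39 to 141.6 times the SD of the blank spots, with a median of 4.23. That SD is for single spots and is smaller than the SD of a difference between 2 spots. The 13 were picked for their large differences, so these gaps cannot show that they stand above noise.

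**Figure D3:**
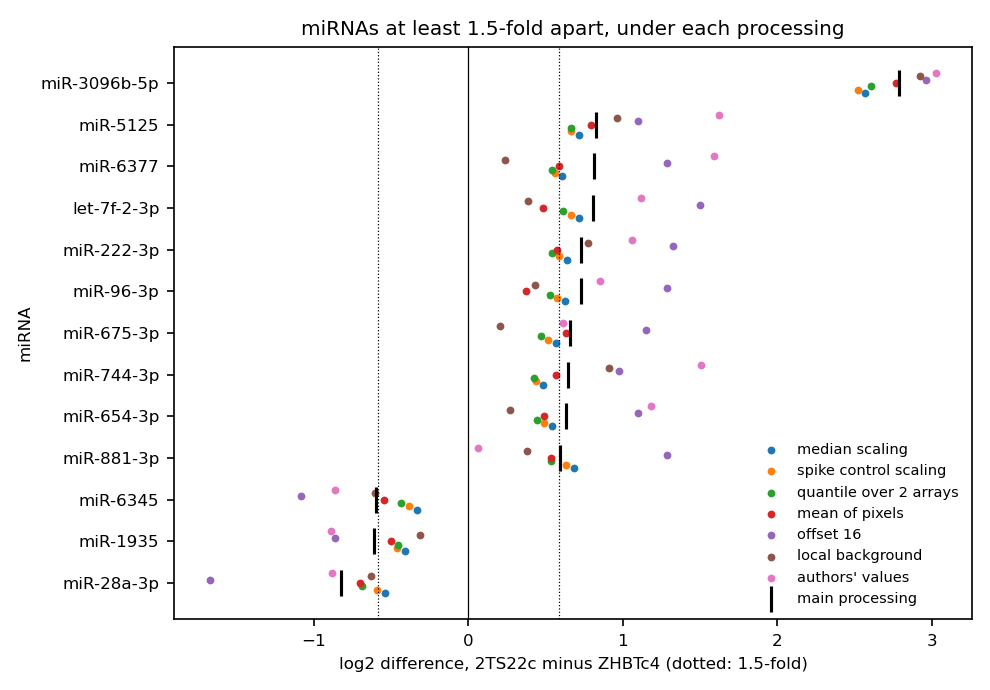
Log2 difference, 2TS22c minus ZHBTc4, of the 13 miRNAs at least 1.5-fold apart. Black bars give the main processing, coloured points the 7 alternatives and dotted lines 1.5-fold. No point crosses 0, and miR-3096b-5p and miR-5125 stay past the dotted line in each.

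On the normalised scale of the main processing, 4 miRNAs were at least 1.5-fold higher on 2TS22c than on all 4 other arrays. They were miR-3096b-5p, miR-5125, miR-744-3p and miR-6377, and only the first 2 were detected on all the other arrays. In intensity the gaps of the last 2 were smaller. miR-744-3p read 84 on 2TS22c and 72 on PKM1 KI, and miR-6377 read 83 and 70. On the normalised scale no miRNA lay 1.5-fold below the rest on 2TS22c, and none lay that far above or below the rest on ZHBTc4.

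Below 1.5-fold, the largest negative differences among miRNAs detected on both arrays were those of miR-3102-5p.2-5p (152 on 2TS22c and 223 on ZHBTc4), miR-6410 (65 and 96) and miR-1249-3p (135 and 191). Their log2 differences were -0.57, -0.56 and -0.52. For miR-6410 and miR-1249-3p the 2TS22c array was the lowest of the 5, and for miR-3102-5p.2-5p the ZHBTc4 array was the highest on the normalised log2 scale. Next came miR-466c-5p, miR-150-5p (a miRNA of lymphocytes, 79 and 113), miR-2136, miR-5621-3p, miR-1198-5p, miR-760-3p, miR-466f and miR-301b-3p, with log2 differences from -0.47 to -0.36. With local background correction miR-760-3p and miR-301b-3p turned to 0.23 and 0.24.

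On the positive side miR-1930-3p (98 and 79), miR-5135 (80 and 65), miR-183-3p (79 and 63) and miR-103-3p (170 and 149) had log2 differences of 0.53, 0.53, 0.52 and 0.51. They were followed by miR-143-5p, miR-1934-3p, miR-135b-5p, miR-182-5p and miR-5118, from 0.44 to 0.40. miR-1934-3p was low on both arrays against the other 3, at 109 and 92 beside 272, 471 and 393. The signs of miR-143-5p and miR-5118 turned with the authors' processed values, to -0.06 and -0.18. With local background miR-183-3p and miR-5118 turned, to -0.23 and -0.03.

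The brightest of the miRNAs detected on ZHBTc4 only were let-7b-3p (58 and 78), miR-1971 (59 and 78), miR-188-5p (54 and 77), miR-323-5p (55 and 76) and miR-1956 (57 and 75), at least 1.25-fold to 1.31-fold higher there. With local background correction miR-1971 and miR-323-5p turned, to log2 differences of 0.12 and 0.10. miR-1843a-5p, detected on 2TS22c only at 76 against 61, was at least 1.39-fold higher on 2TS22c on the same scale, with a log2 difference of 0.18 with local background and 0.34 with the 2 arrays normalised alone.

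**Figure D4:**
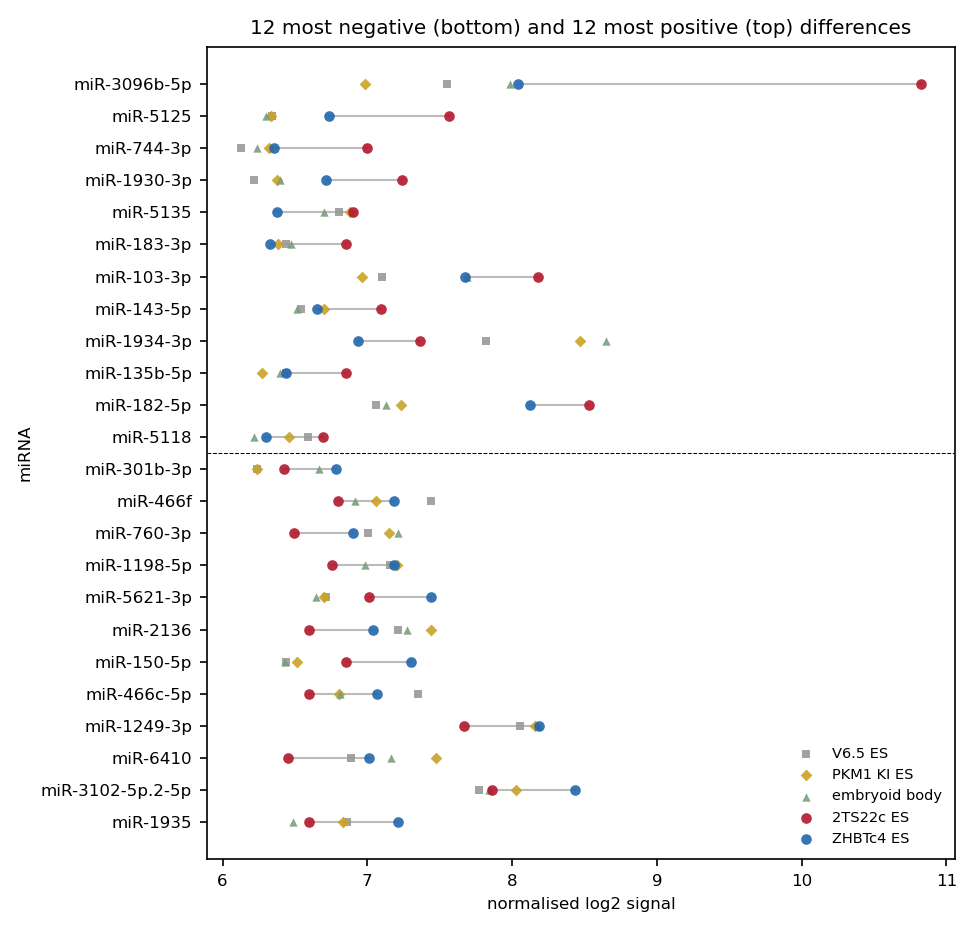
Normalised log2 signal on the 5 arrays of the 12 miRNAs with the largest positive (top) and the 12 with the largest negative (bottom) difference among those detected on both arrays. A grey line joins 2TS22c (red) and ZHBTc4 (blue). Apart from miR-3096b-5p, the joined points are under 1 log2 unit apart, and for several miRNAs, such as miR-1934-3p and miR-182-5p, both lie on the same side of the other 3 arrays.

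By function, the main cluster of ES cells had a median near 0. All 14 spots of the miR-290-295 cluster were detected on at least 1 array, with 7 higher on 2TS22c, 6 lower and 1 equal, and a median log2 difference of 0.01 beside 0 over all 613. miR-294-3p read 4149 and 4619, miR-295-3p 2956 and 3392 and miR-293-3p 1917 and 2070. The intensities were lower on 2TS22c for these 3, while their normalised log2 differences were 0, 0.18 and 0.31. None of the 14 was 1.5-fold apart. With local background correction the median became 0.32.

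The miR-302 and miR-367 cluster, active in the epiblast after implantation, was close to the limit on both arrays. Of its 10 spots 3 were detected, none on both: miR-302d-3p (60 and 52), miR-302d-5p (67 and 48) and miR-302b-3p (54 and 62). The median of 0.28 became 0.01 with the differences taken as bounds. It turned to -0.23 with local background and was 0.91 with the authors' values, so that no direction can be given.

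The miR-17-92 cluster and its paralogs, which drive proliferation, had 23 of 28 spots detected, with 10 higher, 10 lower and 3 equal and a median of 0. miR-17-5p read 1179 and 1463, and miR-20a-5p 948 and 1143, with normalised differences of 0 and -0.13. The lowest was miR-19a-3p, at 186 and 256 and a log2 difference of -0.34. Its near twin miR-19b-3p read 576 and 719, a difference of -0.11. Over all 16 miRNAs with AAGUGC in or beside the seed, as in the first set of sequences, 13 were detected, 4 of them higher, 6 lower and 3 equal. Their median was 0 and their range -0.31 to 0.32, so that none was 1.5-fold apart.

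The miR-182, miR-183 and miR-96 cluster, known from sensory organs and also expressed in ES cells, had 5 of 6 spots detected. The 3 detected on both arrays were higher on 2TS22c. The other 2, miR-183-5p and miR-96-3p, were detected on 2TS22c only, so that the detection rule itself fixed their direction. The median log2 difference was 0.41, or 0.40 with bounds. miR-182-5p read 213 on 2TS22c and 187 on ZHBTc4, and 147, 164 and 120 on V6.5, PKM1 KI and the embryoid body. Both lines of the pair were thus above the other arrays. miR-96-5p read 127 and 120, miR-183-5p 65 and 59 and miR-183-3p 79 and 63. The cluster's median stayed between 0.27 and 0.67 under the 7 other processings, though miR-183-5p and miR-183-3p each turned sign in at least 1. The local background at miR-182-5p was 95 on 2TS22c and 201 on ZHBTc4, and with local background correction its difference was 2.07. Only 1 member, miR-96-3p, was 1.5-fold apart, and it was detected on 2TS22c only.

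miR-103-3p and miR-107-3p, which repress Dicer, both lay higher on 2TS22c, at 170 against 149 and 156 against 154. The normalised log2 differences were 0.51 and 0.23. With the authors' values, 1 of the other processings, the former fell to 0.09 and the latter turned slightly negative, to -0.02. Of the miRNAs reported in mouse ES cells to repress Oct4, Sox2 or Nanog, together with miR-145 which is known for this in human ES cells, 5 of 9 spots were detected. Their median was 0, with miR-296-5p at 293 and 311 (log2 difference 0) and miR-134-3p at 73 and 96 (-0.32). The list takes both arms of a hairpin, whichever arm was reported. The other arm of miR-134, miR-134-5p, was below the limit on both arrays, at 59 and 56 (0.13).

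The let-7 family, which accumulates as cells differentiate, had 9 of 22 spots detected, 7 higher and 2 lower, with a median of 0.12, or 0.04 with bounds. let-7a-5p read 63 and 64, and 6 of the 9 were seen on 1 array only. The families of miR-297a, miR-466a, miR-467a and miR-669a, encoded mostly within an Sfmbt2 intron and known from the placenta, had 15 of 44 detected members higher, 28 lower and 1 equal. Their median was -0.11, or -0.04 with bounds, and ranged from -0.27 to 0.02 under the other processings. These members are near-identical and can share signal. The list used for the Dlk1-Dio3 imprinted cluster, which did not include miR-654-3p, had 15 higher and 22 lower of 37 detected. Its median was -0.07, which ranged from -0.18 to 0.01.

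Lists of differentiated tissues were also near 0. The medians were 0.05 for neural miRNAs, 0.05 for heart and skeletal muscle, -0.03 for liver, gut and pancreas, and 0 for mesenchyme and fibroblasts to 2 decimals. The blood and endothelium list had a median of 0.30 over 5 detected members, 4 of them seen on 2TS22c only, and 0.09 with bounds. The lists of the miR-200, miR-322 and miR-503, miR-15 and miR-16, miR-130 and miR-301, Hox, and miR-125 and miR-99/100 miRNAs had medians from -0.02 to 0.14. The miR-29 and miR-34 families had 1 detected member each, of 7 and 11 spots. Of the 20 lists with 3 or more detected members, 4 had 1 sign under every setting run.

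**Figure D5:**
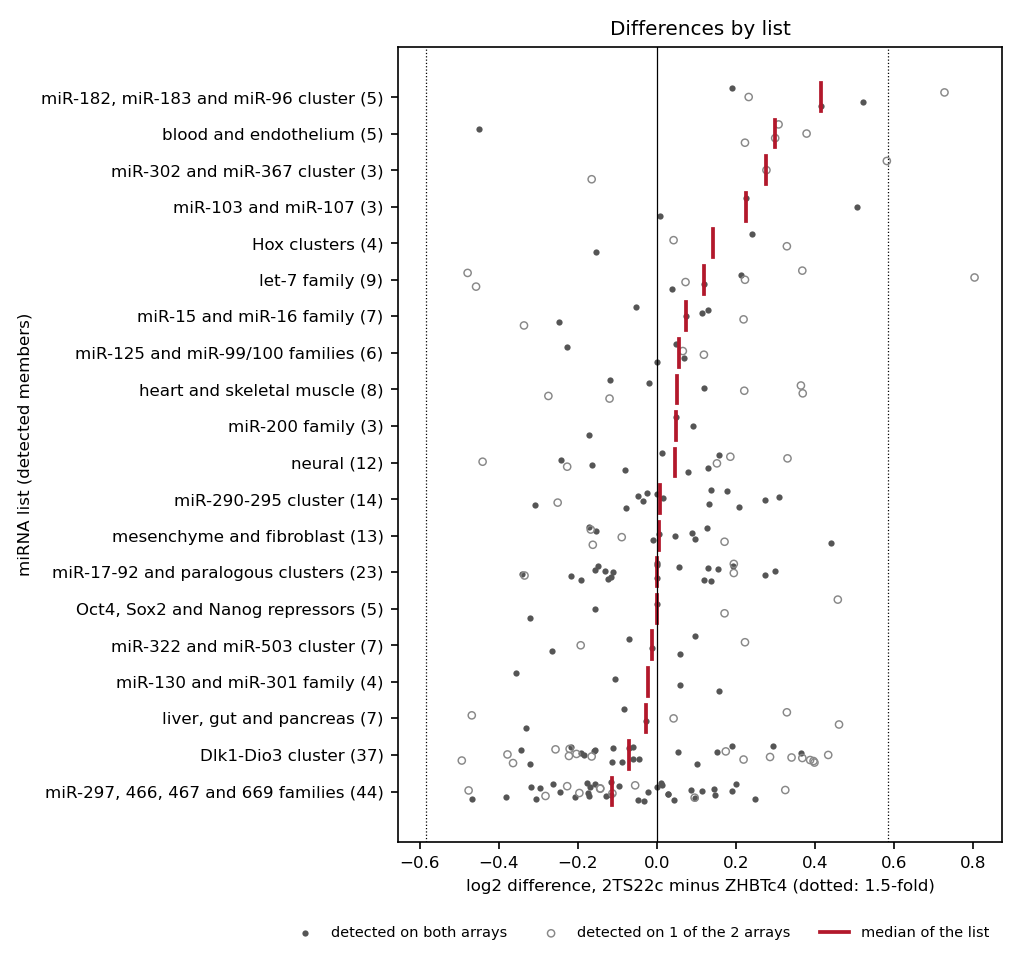
Log2 difference, 2TS22c minus ZHBTc4, of the detected members of 20 miRNA lists, with the number of members in brackets. Filled points were detected on both arrays, open points on 1, red bars are list medians and dotted lines 1.5-fold. The medians run from -0.11 to 0.41, and 2 open points lie past a dotted line.

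The differences fell slightly with GC content. Over 480 miRNAs with a RefSeq mature sequence, of 1020 spots matched, the correlation with GC content was -0.17 (Pearson) and -0.17 (Spearman), as a description without a test. The median difference in 4 bins of rising GC content was 0.05, 0.03, -0.04 and -0.06. With the authors' values these were 0.05, -0.03, -0.21 and -0.21, and with median or spike scaling Pearson's r was -0.24. GC content also went with spot intensity itself (r of 0.21), and its part in the result was not tested. Medians by arm were 0.01 for 233 miRNAs of the 5p arm and -0.02 for 235 of the 3p arm. At least 1.5-fold apart were 1 of the former and 8 of the latter. In 57 hairpins with both arms detected, the differences of the 2 arms had a Pearson's r of 0.05, with 26 pairs of the same sign and 24 of opposite sign.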

How the data were processed

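Total RNA was labelled with Hy5, per the labels, and hybridised to 1 single-colour array per culture. The deposited scanner files give spot intensity at 635 nm as the median of pixels, per the file headers. The authors also deposited a table of intensity values scaled to a median of 25 per array. Where it held a value, it followed the scanner values on a straight line (r of 0.99998 or more). How it was made is not given in the sources used here. A missing value was set to the lowest value of the array. Intensities were corrected with normexp (saddle fit, offset 50) and quantile-normalised over 1265 miRNA spots of 5 arrays with limma 3.58.1 in R 4.3.3, then put on a log2 scale. The offset pulls folds of dim miRNAs towards 1. The procedure was tested on simulated data, with changes of at least 2-fold planted in brighter spots only. That test therefore does not cover dim miRNAs or changes near 1.5-fold. For a miRNA detected on 1 array, the fold is a bound, taken over the dim array's own signal or its lowest detected signal, whichever is higher. Array precision is limited by their number. A total of 23 lists were described by counts and medians. Members and lists were chosen with earlier results of these data known. Named miRNAs are the 12 with the largest difference in each direction found on both arrays, for each array the 5 brightest seen there alone, members of lists that were at least 1.5-fold apart, and examples of the main lists. Cell type markers listed without an arm were read at the arm that is usually dominant, a choice made after the values had been seen, as was the 1.2-fold used to describe bright miRNAs. Mature sequences were matched by name for 1020 of 1265 spots. Alternatives were 7 other processings and other detection filters.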

Additional observations from a re-analysis of the deposited data

Results flagged for a closer look

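Outside the miRNA spots, some of the 22 probes named S-Probe that are printed once gave signal. Their purpose is not given in the sources used here. A total of 9 were above the blank-spot limit on both arrays. S-Probe1014 read 2029 on 2TS22c and 2397 on ZHBTc4, and 4079, 6104 and 3049 on V6.5, PKM1 KI and the embryoid body. S-Probe1018 read 1177 on 2TS22c and 1400 on ZHBTc4, and 1417, 1687 and 908 on the others.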

How the results depend on the processing

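No paired analysis was possible because each line has 1 array, and no replicate could be left out. The count at 2-fold, 1 in the main processing, was 36 with the authors' values, 9 with local background, 17 with offset 16 and 3 with the mean of pixels. The count at 1.5-fold, 13 in the main processing, was 143 with the authors' values, 57 with local background, 92 with offset 16, 7 with median scaling, 6 with spike scaling, 4 with quantiles over the 2 arrays alone and 4 among miRNAs detected on both. The cause was not tested, except that the last count covers fewer miRNAs. All results with the authors' values include the filled gaps, whose part was not tested. The split of higher and lower, 10 and 3 in the main processing, was 57 and 86 with the authors' values, 38 and 19 with local background, 52 and 40 with offset 16, 8 and 6 with the mean of pixels and 7 and 0 with median scaling. The authors' values moved the median of all miRNAs to -0.12. List medians moved by more than 0.28 in 9 of 199 values. Local background gave 0.32 for miR-290-295, -0.23 for miR-302 and miR-367 and 0.45 for miR-130 and miR-301. The authors' values gave 0.91 for miR-302 and miR-367, 0.81 for blood and endothelium, -0.37 for the miR-322 and miR-503 cluster and -0.40 for miR-200. The negative control limit gave 0.58 for miR-302 and miR-367, and blood and endothelium lay at -0.45 among miRNAs detected on both arrays. Detected on 2TS22c only were 93, or 60 at blank mean plus 3 SD. Detected on ZHBTc4 only were 106, or 64 at 3 SD and 54 with the negative control limit. Of 252 values of 36 named miRNAs under the 7 processings, 196 moved by less than 0.28 and 56 by more. Most differences lie close to background, where signal limits what can be told.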
